A study of Caenorhabditis elegans with 18 samples.

Results

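The messenger RNAs (mRNAs) of 40 body wall muscle and sarcomere genes, and the small RNAs (sRNAs) mapping to them, were followed across 6 comparisons of mutant Caenorhabditis elegans with the wild-type strain N2. The 40 genes were chosen by name, with earlier results of these data known. All 40 were listed in each of the 6 tables, among 42048 entries in the tables of young mothers and 42400 in those of mixed populations. They fall into 9 roles, from the myosins of the thick filament to HLH-1, the worm's MyoD-like transcription factor. The myosins myo-1 and myo-2 and the troponin I gene tni-4 are known mainly from the pharynx, so the label of body wall muscle does not hold for every gene.

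Body wall muscle of the worm is striated. Its sarcomeres interleave myosin thick filaments, held at the M line, with actin thin filaments anchored in dense bodies, and integrins tie both structures through the basement membrane to the skin. Worms with a damaged sarcomere move poorly or are paralysed, and many of these genes carry the names unc, for uncoordinated, or pat, for paralysed arrest of the embryo. Small RNAs of the worm pair with transcripts and guide Argonaute proteins that can silence them, and MEG-3 and MEG-4 are disordered proteins of the germ granules in which part of this machinery gathers.

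Whole worms grown at 20 C were sampled in 18 libraries that form 9 groups of 2. Line 1, meg-3(ax3055) meg-4(ax3052), was measured as mRNA in young mothers on HT115-L4440 bacteria, under the strain name JH3475, and was set against N2 young mothers on the same bacteria. The sRNAs of 4 lines were measured in mixed populations on NA22 bacteria and set against N2 mixed populations on NA22. These were line 1 with the alleles above, line 2 with meg-3(ax3055) meg-4(ax4310) in JH3672, line 3 with meg-3(ax3055) meg-4(ax4311) in JH3673, and line 4 with meg-3(ax3055) meg-4(ax4312) in JH3674. The sRNAs of rde-11(hj37) young mothers on HT115-L4440 were set against those of N2 young mothers on HT115-L4440, and RDE-11 is a factor of RNA interference by supplied double-stranded RNA. All 4 lines share their meg-3 allele and were compared with the same 2 N2 libraries, so their comparisons are not independent of each other. The line 2 libraries carry a stage label of young mother beside titles that say mixed population, and the titles were followed. No label says that the 2 libraries of a group came from separate cultures, so p-values measure only the spread between these samples, which may be technical.

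Depth, in units of 1e6 reads assigned to genes, was 21.99 and 44.9 in the line 1 mRNA libraries, against 45.2 and 44.3 in the N2 mRNA libraries, and it was 3.82 to 7.47 in the sRNA libraries. The 2 libraries of every group differed by more than the sampling noise of their reads (chi-square per degree of freedom 4.49 to 45.8). In the mRNA of line 1, meg-3 stood at 0.312 and 0.283, against 92.3 and 94.5 in N2, and meg-4 had no read in line 1, against 45.3 and 43.6 in N2. sRNAs mapping to meg-4 were at 0 to 0.457 RPM, reads scaled to an equal library total, in the 4 lines, against 35.1 and 49.2 RPM in N2. sRNAs mapping to rde-11 were at 773 and 711 RPM in the rde-11 mutant and at 658 and 623 RPM in N2, which does not test that mutation.

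The mRNA of most muscle genes was slightly higher in line 1 young mothers than in N2, and for 3 genes the difference passed the test. These were pat-2, the alpha subunit of a muscle integrin, deb-1, the vinculin of dense bodies, and unc-52, the perlecan of the muscle basement membrane. The values are a scaled signal per library, and genes averaging 10 or more across the 4 libraries entered limma on log2(signal + 1), with Benjamini-Hochberg adjustment over all genes and a threshold of 0.05. Of the 40 muscle genes 38 were tested, 3 rose and none fell, while limma called 4.18% of all tested genes higher and 10.3% lower. At an unadjusted p under 0.05 limma had 16 muscle genes higher and 1 lower, beside 11.3% and 32.6% of all genes tested, and edgeR on the recovered reads called 3 higher and 0 lower after adjustment. Scaling by the trimmed mean of M-values (TMM) also gave 3 higher and 0 lower, beside 3.86% and 5.58% of all genes tested. Under TMM, as by edgeR, the 3 genes were pat-2, unc-52 and unc-27, a troponin I, in place of deb-1. All values are relative to the total of a whole worm, so fewer cells of a type and less RNA per cell cannot be told apart.

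As a group the muscle genes stood above the middle of the transcriptome. The log2 change of line 1 over N2 had a median of 0.16 over the 38 genes, against -0.11 over all 7616 genes tested (-0.08 under TMM), a difference of 0.28. The log2 change of 36 of the 38 lay above the all-gene median, and it ran from -0.15 for unc-45 to 0.40 for tnt-2. Both line 1 libraries were higher than both N2 libraries for 25 of the 38 muscle genes (65.8%), against 20.1% of all genes tested. Both were lower for 1 of the 38, against 53.8% of all genes tested. The muscle genes took 1.26 and 1.45% of the mRNA signal in line 1, against 1.119 and 1.117% in N2.

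**Figure D1:**
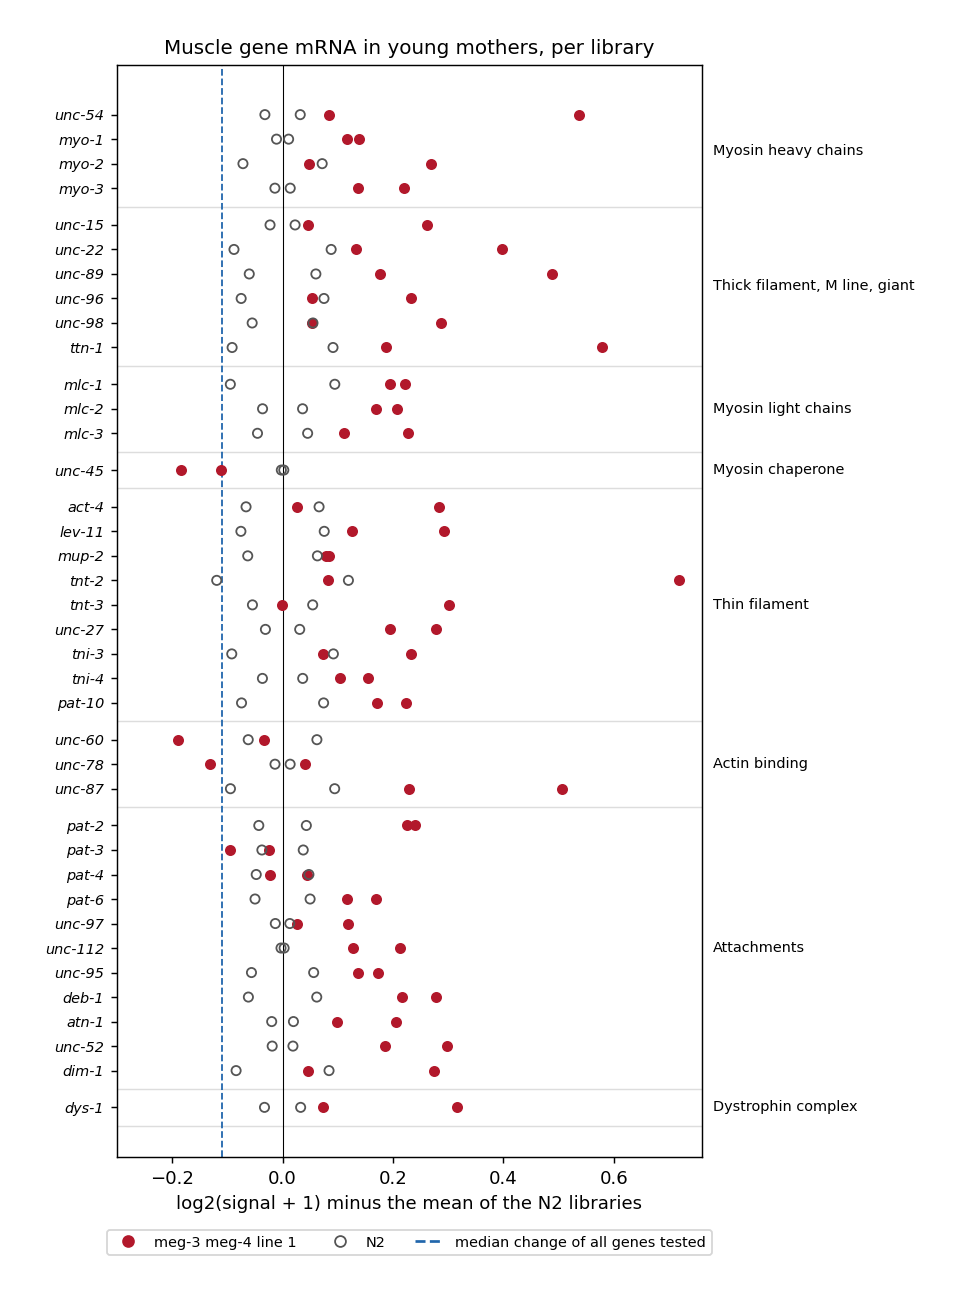
The plot shows log2(signal + 1) of each library minus the mean of the N2 libraries for the 38 tested muscle genes, by role, with filled points for the 2 line 1 libraries and open points for the 2 N2 libraries. For 25 genes both line 1 points lie right of both N2 points, while the dashed line marks the all-gene median of -0.11.

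The myosin heavy chains form the backbone of the thick filament. The mRNA signal of unc-54, the main heavy chain of body wall muscle, was 2129 and 2917 in line 1, against 1965 and 2054 in N2 (log2 0.31, SE 0.15, adjusted p = 0.138 by limma). Both line 1 libraries lay above both N2 libraries, but replicate 2 accounted for most of the difference, and the gene did not pass. The signal of myo-3, the heavy chain at the filament centre, was 476 and 504 in line 1, against 429 and 437 in N2 (log2 0.18, SE 0.06, adjusted p = 0.0770). The groups did not overlap for myo-3, and the pharyngeal myosins myo-1 and myo-2 had log2 changes of 0.13 and 0.16 without passing.

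Paramyosin, the M-line proteins and the giant kinases gave the same picture in line 1. The mRNA signal of unc-15, which encodes the paramyosin core of the filament, was 812 and 943 in line 1, against 799 and 774 in N2 (log2 0.15, adjusted p = 0.192 by limma). For unc-22, which encodes the giant protein twitchin, it was 1027 and 1233 in line 1, against 880 and 994 in N2 (log2 0.27, adjusted p = 0.0993). For unc-89, which encodes an obscurin of the M line, it was 478 and 594 in line 1, against 406 and 441 in N2 (log2 0.33, adjusted p = 0.0619). Line 1 lay above N2 in both libraries for these 3 genes, and none passed. The titin-like gene ttn-1 had the second largest difference of the muscle genes, 181 and 238 in line 1, against 149 and 169 in N2 (log2 0.38, adjusted p = 0.0656). The other M-line genes, unc-96 and unc-98, had log2 changes of 0.14 and 0.17 with overlapping groups.

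The regulatory and essential light chains mlc-1, mlc-2 and mlc-3 had log2 changes of 0.17 to 0.21 in line 1, with no overlap between the groups and no call after adjustment. Reads of the near-identical copies mlc-1 and mlc-2 could have been split between them, and likewise those of act-4 and the other actins. The myosin chaperone gene unc-45 went the other way. Its mRNA signal was 101 and 95.6 in line 1, against 109 and 109 in N2 (log2 -0.15, adjusted p = 0.0998 by limma), both line 1 libraries being below both of N2.

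On the thin filament all 9 genes lay above the all-gene median and none passed limma, with 3 higher at an unadjusted p under 0.05 and 1, unc-27, called higher by edgeR. The largest difference of all muscle genes was that of tnt-2, a troponin T, with an mRNA signal of 141 and 220 in line 1, against 145 and 123 in N2 (log2 0.40, SE 0.18, adjusted p = 0.128). Its groups overlapped, since replicate 1 of line 1 lay between the N2 libraries and only replicate 2 stood apart. Troponin I from unc-27 was at 563 and 597 in line 1, against 481 and 503 in N2 (log2 0.24, SE 0.07, adjusted p = 0.0505), without overlap. The other thin filament genes, among them the tropomyosin gene lev-11, the troponin C gene pat-10 and the actin gene act-4, had log2 changes of 0.08 to 0.21.

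The actin-binding proteins did not move as a group. The mRNA signal of unc-87, which encodes a calponin-like protein that stabilises actin filaments, was 360 and 436 in line 1, against 328 and 287 in N2 (log2 0.37, SE 0.10, adjusted p = 0.0513 by limma). Its groups did not overlap, and the gene lay just outside the threshold. The authors' deposited table gives unc-87 an adjusted p of 0.00579. Of 38 muscle genes with an adjusted p it calls 7 higher and 0 lower, pat-2, deb-1, unc-52 and unc-87 with unc-22, unc-89 and unc-27. The share of all genes called there was not counted, so the 7 cannot be set against it. The genes of actin turnover, unc-60 (cofilin) and unc-78 (an actin-interacting protein that works with cofilin), had log2 changes of -0.11 and -0.05 with overlapping groups.

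All 3 genes that rose by limma belong to the integrin attachments, where 11 genes were tested, beside 4.18% of all genes called higher. Under TMM and by edgeR 2 attachment genes were called higher. The median of the 11 genes lay 0.26 above that of all genes, against 0.28 for the 38 muscle genes. The mRNA signal of pat-2 was 142.2 and 143.4 in line 1, against 118 and 125 in N2 (log2 0.23, SE 0.06, adjusted p = 0.0440 by limma). That of deb-1 was 97.2 and 101 in line 1, against 87.3 and 80.0 in N2 (log2 0.25, SE 0.07, adjusted p = 0.0492). That of unc-52 was 499 and 539 in line 1, against 433 and 444 in N2 (log2 0.24, SE 0.07, adjusted p = 0.0493). In each of the 3 genes both line 1 libraries lay above both N2 libraries, and each stood close to the threshold. In WBcel235, a later genome build, pat-2 and unc-52 overlap the coding genes F54F2.9 and hhat-1, so part of their reads is uncertain. The beta integrin pat-3 and the integrin-linked kinase pat-4, partners of pat-2 in the same attachments, had log2 changes of -0.06 and 0.01 with overlapping groups. The remaining attachment genes, pat-6, unc-97, unc-112, unc-95, atn-1 and dim-1, had log2 changes of 0.07 to 0.17.

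The dystrophin gene dys-1 had an mRNA signal of 57.3 and 67.99 in line 1, against 53.2 and 55.7 in N2 (log2 0.19, adjusted p = 0.131 by limma), without overlap. Its partner dystrobrevin, dyb-1, was too low to be tested, at 4.10 and 3.77 in line 1, against 4.62 and 4.31 in N2. The transcription factor gene hlh-1 was also too low, at 2.09 and 1.74 in line 1, against 1.58 and 2.09 in N2.

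The count of called genes rested on single libraries. The share of all genes called without a library is not given here, so the counts below cannot be set against it. Without replicate 1 of line 1, the shallowest mRNA library, 14 muscle genes were called higher, and without replicate 2 of line 1 or either N2 library 0 were. pat-2 was called in none of these 4 sets (adjusted p = 0.0762 to 0.143), and deb-1 and unc-52 only in the set without replicate 1 of line 1. The median relative to all genes moved less, between 0.23 and 0.34 over the 4 sets that leave out a library.

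Genes of related function that are not among the 40 were read from lists beside them. Among 16 other attachment, dense body and M-line genes 3 rose in line 1 by limma: vab-10, a spectraplakin, lim-9, a LIM domain protein of the M line, and unc-82, a kinase of the thick filament. Their mRNA log2 changes were 0.33, 0.26 and 0.35. unc-82 was not called under TMM (adjusted p = 0.0586 by limma) or by edgeR (0.0576). Beside the counts of all lists in this comparison, limma called 4.18% of all tested genes higher and 10.3% lower. Of 9 tested genes of excitation and calcium handling 4 rose, egl-19 (the muscle calcium channel), unc-43 (a calmodulin kinase), itr-1 (a calcium release channel) and csq-1 (calsequestrin). The mRNA signal of egl-19 was 23.8 and 26.97 in line 1, against 18.3 and 18.02 in N2 (log2 0.46, adjusted p = 0.0295), and the other 3 had log2 changes of 0.25 to 0.33. Of 3 tested receptor genes of the neuromuscular junction lev-10, which clusters acetylcholine receptors, rose by 0.34.

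In other lists few genes or none were called higher by limma. Of 14 other thin filament and actin genes 0 were called in either direction, with 5 higher and 0 lower at an unadjusted p under 0.05 and 0 by edgeR. Of 10 basement membrane genes 0 were called by limma or edgeR, with 6 higher at an unadjusted p under 0.05, and their median lay 0.30 above that of all genes. Other dystrophin complex genes had 0 of 4 called by limma or edgeR (1 higher and 1 lower unadjusted), and other muscle transcription and chaperone genes 0 of 3 (0 unadjusted).

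Tissues other than muscle differed as well, and their part in the muscle values was not tested. Of 20 germline and oocyte genes 10 fell in line 1 and none rose by limma or edgeR, with 15 lower and 0 higher at an unadjusted p under 0.05. They include puf-5, pos-1, oma-1 and egg-2, which act in oocytes and early embryos, with mRNA log2 changes of -0.40, -0.34, -0.36 and -0.26. Their summed signal was 8171 and 8307 in line 1, against 9849 and 9749 in N2, and 7 were called lower under TMM and 6 by edgeR. Of 11 neuron genes 3 rose (unc-13, unc-44 and egl-3, log2 0.26 to 0.33), and of 13 intestine genes 1 rose (acs-22, log2 0.48). egl-3 was not called under TMM (adjusted p = 0.0570 by limma) or by edgeR (0.0605). The medians of the neuron and intestine lists lay 0.28 and 0.25 above that of all genes. The 6 yolk protein genes, made in the intestine, had a median 0.46 above that of all genes and 0 calls by limma or edgeR, with 5 higher at an unadjusted p under 0.05. Sperm, pharynx and skin lists had 0 of 9, 0 of 3 and 0 of 3 called by either tool, with 1 higher, 0 and 1 lower unadjusted. Whether the muscle genes differed from these lists was not tested.

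**Figure D2:**
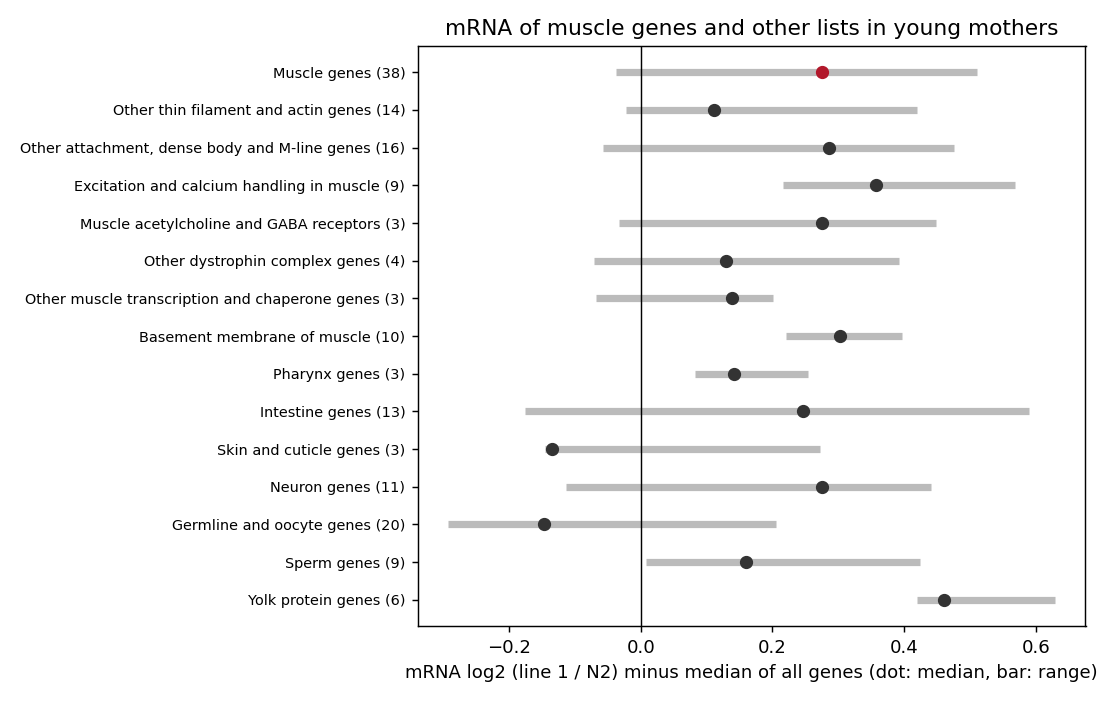
The plot shows for each gene list the mRNA log2 change of line 1 over N2 minus the median of all genes tested, with a dot for the list's median, a bar for its range and the number of genes tested in brackets. The muscle genes sit at 0.28, the yolk proteins at 0.46 and the germline and oocyte genes at -0.15.

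sRNAs mapping to the muscle genes were scarce. In N2 young mothers the 38 muscle genes with an mRNA signal of at least 10 had a median of 1.10 RPM of sRNAs, and 7 of them (18.4%) reached 10 RPM. Over all 7554 genes with such an mRNA signal the median was 18.6 RPM, and 64.1% reached 10 RPM. Of the 38 muscle genes 18 were under 1 RPM. sRNAs of the myosin gene myo-3, for example, were at 0.235 and 0.206 RPM in N2 young mothers. sRNAs are described here as mapping to a gene without regard to strand, since the strand setting is not given in the sources used here.

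All 40 genes together took 0.0283 to 0.0380% of sRNA reads in the 4 lines, against 0.0454 and 0.0446% in N2 mixed populations. Few were above the filter of 10 RPM, 7, 8, 8 and 7 genes in lines 1 to 4. sRNAs of all genes were lower in the lines on the RPM scale, by a median log2 of -0.34, -0.56, -0.59 and -0.77 in lines 1 to 4, which TMM scaling brought to -0.03, -0.11, -0.04 and -0.17. Changes are therefore also set against that median.

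In line 1 limma called 0 of 7 muscle genes higher and 3 lower, where it called 3.03% of all tested genes higher and 13.8% lower. In line 2 it called 1 of 8 higher and 6 lower, where it called 5.83% of all tested genes higher and 52.8% lower. For line 3 the calls were 1 of 8 higher and 6 lower, beside 5.83% and 54.4% of all tested genes. For line 4 they were 0 of 7 higher and 5 lower, beside 5.4% and 66.7% of all tested genes. The lower calls include unc-54 in all 4 lines, and the higher calls are those of unc-87 in lines 2 and 3. Both genes averaged 10 RPM or more in only 1 of the groups compared, so they entered the test through the libraries in which they were high, and the counts are a description. TMM scaling gave 0 higher and 0 lower calls for line 1, where it called 6.27% of all tested genes higher and 7.57% lower. For line 2 it gave 2 of each, beside 12.3% and 9.81% of all genes, for line 3 it gave 1 of each, beside 16.4% and 8.48%, and for line 4 it gave 2 higher with 0 lower, beside 14% and 13%. At an unadjusted p under 0.05 limma had 0 higher and 3 lower in line 1, beside 5.47% and 27.1% of all genes, and 1 higher and 6 lower in line 2, beside 6.45% and 57.2%. In line 3 it had 1 higher and 6 lower at that p, beside 6.64% and 58.9%, and in line 4 it had 0 higher and 5 lower, beside 5.66% and 68.2%. edgeR called 0, 2, 1 and 1 higher and 1, 2, 1 and 0 lower in lines 1 to 4. Over all 6821, 6678, 6653 and 6590 genes tested it called 401, 800, 1058 and 886 higher and 520, 675, 595 and 876 lower. The authors' deposited table gives an adjusted p for more muscle genes than limma tested, 14, 20, 16 and 16 in lines 1 to 4. Of these it calls 1, 2, 1 and 2 higher and 0, 1, 1 and 0 lower in the same order. The share of all genes called there was not counted, so these counts cannot be set against it. The lower calls of the authors are fewer than those of limma on RPM in every line, and their higher calls are not. Relative to all genes the median log2 of the tested muscle genes was -0.14, -0.15, -0.10 and -0.02 in lines 1 to 4. Both line libraries were lower than both N2 libraries for 5, 5, 6 and 7 of them, beside 56.2%, 71.4%, 71.7% and 76.7% of all genes. Both were higher for 0, 2, 1 and 0 of them, beside 9.43%, 9.93%, 10.5% and 8.59% of all genes. The counts lower moved when a library was left out, and the shares of all genes called in those sets are not given here. Without replicate 1 of the line they were 1, 3, 1 and 1 in lines 1 to 4, and without its replicate 2 they were 1, 3, 2 and 3. Leaving out N2 replicate 1 gave 2, 4, 4 and 5 lower in the same order, and leaving out N2 replicate 2 gave 3, 6, 5 and 4.

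sRNAs mapping to unc-87, the calponin-like gene, were far above N2 in all 4 lines. Line 1 had 16.5 and 13.4 RPM, line 2 had 31.9 and 31.8, line 3 had 17.4 and 18.8 and line 4 had 15.5 and 14.1, against 1.90 and 2.62 RPM in N2. Every line library lay above both N2 libraries, and the ratios of the means were 6.62, 14.1, 8.01 and 6.57 in lines 1 to 4. The N2 level rests on 8 and 10 reads, against 55 to 208 reads in a line library. The gene passed the filter in lines 2 and 3, there only through the line libraries, since its N2 mean was 2.26 RPM. It rose in both, with log2 changes of 3.34 (SE 0.32, adjusted p = 1.03e-16 by limma) and 2.56 (SE 0.37, adjusted p = 2.64e-07), and it stood 3.90 and 3.15 above the median of all genes. In lines 1 and 4 its mean was under 10, and it is named there after its values were seen. With the filter lowered to a mean of 1, which the N2 mean also meets, it was called in all 4 lines. The log2 changes in lines 1 and 4 were then 2.29 in both (adjusted p = 0.00156 and 0.000359 by limma), and those in lines 2 and 3 kept their size (adjusted p = 3.96e-06 and 8.64e-05).

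The authors' deposited table also lists unc-87 as higher in all 4 lines, with adjusted p-values of 4.42e-05, 3.24e-17, 2.62e-09 and 8.82e-08 in lines 1 to 4. In the RefSeq annotation of assembly WBcel235 the gene overlaps another protein-coding gene, F08B6.1. sRNAs of F08B6.1 were at 8.003 to 15.6 RPM in the 4 lines, against 21.8 and 14.9 RPM in N2, so they did not stand higher in the lines. In rde-11 mutants unc-87 sRNAs were at 2.22 and 1.83 RPM, against 2.35 and 1.24 RPM in N2 young mothers, too low to be tested. The 4 lines differed from each other in unc-87 sRNAs by the moderated F test of limma in a fit of all 10 mixed-population libraries (adjusted p = 0.0150), line 2 being the highest.

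**Figure D3:**
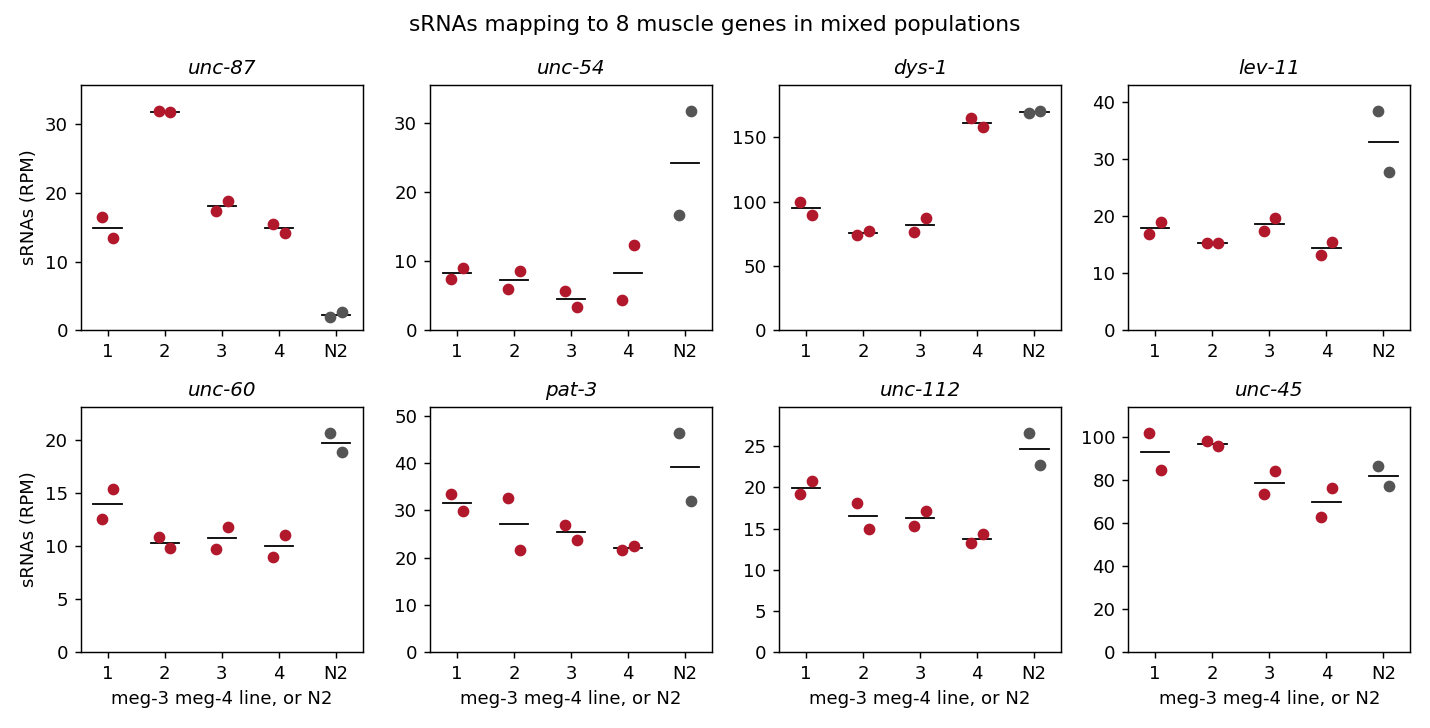
The plot shows sRNAs in RPM for the 8 muscle genes that reached the filter over the mixed-population libraries, with 2 points and their mean for each of lines 1 to 4 and for N2. unc-87 lies at 13.4 to 31.9 RPM in the lines and 1.90 and 2.62 RPM in N2, while dys-1 in line 4, at 165 and 158 RPM, lies close to the 169 and 170 RPM in N2.

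sRNAs mapping to unc-54, the main myosin heavy chain, fell in all 4 lines. Line 1 had 7.38 and 9.03 RPM, line 2 had 5.98 and 8.496, line 3 had 5.63 and 3.42 and line 4 had 4.42 and 12.3, against 16.6 and 31.7 RPM in N2. No line library reached the lower N2 library, and the N2 libraries were themselves far apart. The log2 changes were -1.39, -1.56, -2.15 and -1.50 in lines 1 to 4 (adjusted p = 0.00174, 2.62e-06, 4.63e-07 and 1.79e-05 by limma), which is 1.05, 1.00, 1.56 and 0.73 below the median of all genes. The gene passed the filter only through N2, with means of 4.53 to 8.34 RPM in the lines, against 24.1 RPM in N2. With the filter lowered to a mean of 1, which both groups meet, it was called lower in all 4 lines (adjusted p = 0.0321, 0.00506, 0.00120 and 0.0150). Under TMM the gene was still called in lines 2 and 3 and no longer in lines 1 and 4 (adjusted p = 0.0506 and 0.142). By edgeR it was called lower in line 1 (adjusted p = 0.0431) and in lines 2 and 3, and not in line 4. In line 4 the call was also lost without its replicate 1 or N2 replicate 2 (adjusted p = 0.0614 and 0.0953). In line 3 it fell under the filter without N2 replicate 2 and could not be tested there. The authors' deposited table calls unc-54 lower in line 3 (adjusted p = 0.00316) and not in lines 1, 2 and 4 (adjusted p = 0.114, 0.0652 and 0.396). sRNAs of the other thick filament genes were under the filter, with unc-22 at 2.41 to 5.79 RPM in the lines, against 4.03 and 6.28 RPM in N2, and unc-15 at 1.67 to 4.09 RPM in the lines, against 2.14 and 1.57 RPM in N2.

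sRNAs mapping to dys-1, the dystrophin gene, divided the lines. Line 1 had 99.6 and 89.8 RPM, line 2 had 73.9 and 77.6, line 3 had 76.1 and 87.6 and line 4 had 165 and 158, against 169 and 170 RPM in N2. They fell in lines 1 to 3 (log2 -0.84, -1.15 and -1.05, adjusted p = 0.00906, 5.49e-06 and 0.000177 by limma). In line 4 the log2 change was -0.07 (adjusted p = 0.790), or 0.70 above the median of all genes, and under TMM it was 0.54 and called higher (adjusted p = 0.0360). Of lines 1 to 3, TMM kept the call in line 2 (adjusted p = 0.0142) and not in lines 1 and 3 (0.0840 and 0.0735). The call in line 1 was lost without either line library, and that in line 3 without its replicate 1 (adjusted p = 0.160, 0.384 and 0.0995). The authors' deposited table calls dys-1 lower in line 2 (adjusted p = 0.0148), higher in line 4 (log2 0.58, adjusted p = 0.0339) and in neither direction in lines 1 and 3 (adjusted p = 0.150 and 0.100). The F test among the 4 lines called dys-1 (adjusted p = 0.00139), and dys-1 and unc-87 were the 2 of 8 tested muscle genes it called, where it called 8.64% of all genes tested. Without replicate 1 or replicate 2 of line 2 it called 1 of the muscle genes.

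Tropomyosin, cofilin and the attachment proteins were lower on the RPM scale and were not called under TMM in any line. sRNAs of lev-11 stood at 13.3 to 19.8 RPM in the line libraries, against 38.4 and 27.7 RPM in N2, and were called lower in all 4 lines (log2 -0.83, -1.04, -0.79 and -1.13). sRNAs of unc-60 stood at 8.97 to 15.4 RPM in the lines, against 20.6 and 18.8 RPM in N2, and were called lower in lines 2 to 4. The line libraries lay below both N2 libraries for both genes. sRNAs of pat-3, the beta integrin, stood at 21.6 to 33.4 RPM in the lines, against 46.3 and 31.9 RPM in N2, and those of unc-112, a kindlin, at 13.3 to 20.8 RPM in the lines, against 26.6 and 22.8 RPM in N2. Both were called lower in lines 2 to 4, with changes within 0.06 of the median of all genes in every line, and pat-3 overlapped N2 in lines 1 and 2. In line 1 neither pat-3 nor unc-112 was called, and their log2 changes of -0.28 and -0.29 turned to 0.02 and 0.01 under TMM. The authors' deposited table calls none of these 4 genes in any line. By limma lev-11 kept its call in lines 2 and 4 whichever library was left out. In line 1 lev-11 lost it without either line library or N2 replicate 1, and in line 3 without either line library. For unc-60 the call was lost without either line library in lines 2 and 3, and without replicate 1 of line 4. For pat-3 and unc-112 it was lost without either line library in lines 2 to 4, and without N2 replicate 1 in lines 2 and 3 (adjusted p = 0.366 and 0.162 for pat-3, 0.100 and 0.0623 for unc-112). unc-112 overlaps the coding gene gasr-8 and unc-60 overlaps F53E2.2 in WBcel235.

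sRNAs of the myosin chaperone gene unc-45 stayed closer to the N2 level in RPM than the median gene. Line 1 had 102 and 84.7 RPM, line 2 had 98.1 and 95.7, line 3 had 73.4 and 84.2 and line 4 had 63.1 and 76.3, against 86.4 and 77.2 RPM in N2. No line was called by limma on RPM (log2 0.18, 0.24, -0.05 and -0.23), and the changes lay 0.52, 0.81, 0.54 and 0.54 above the median of all genes. Under TMM the log2 changes were 0.49, 0.71, 0.50 and 0.37, positive in all 4 lines, and line 2 was called (adjusted p = 0.0115). The authors' deposited table also calls it higher in line 2 only (adjusted p = 0.00963).

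**Figure D4:**
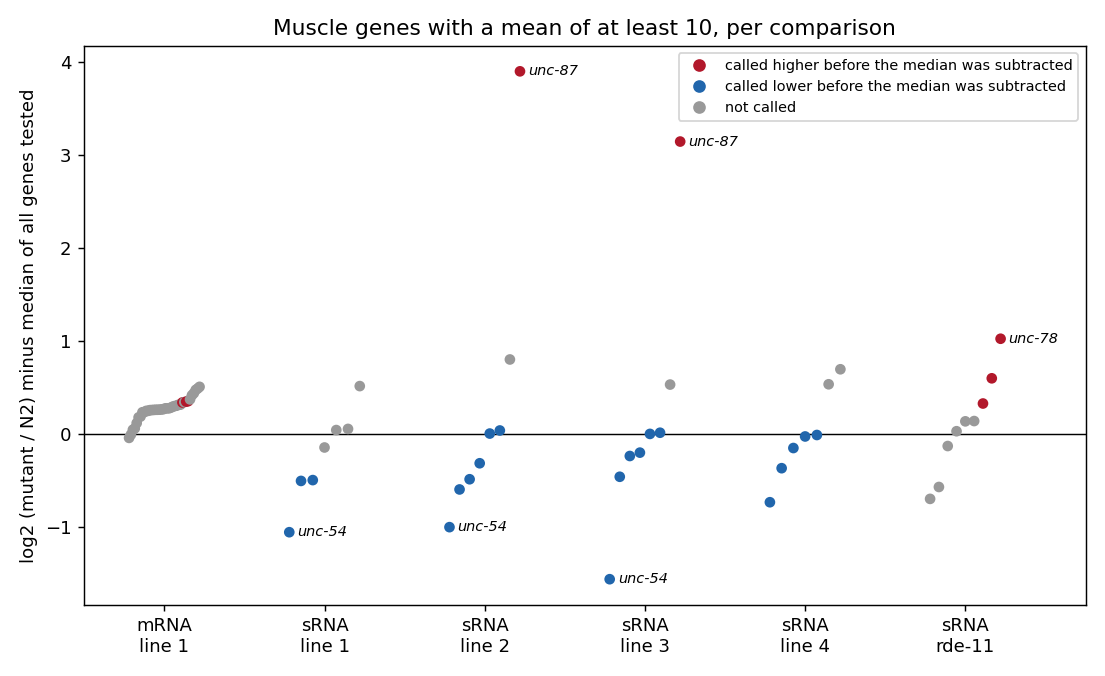
The plot shows, for each comparison, the log2 change of mutant over N2 minus the median of all genes tested for every muscle gene above the filter, coloured by its call before the median was subtracted. unc-87 in lines 2 and 3 lies at 3.90 and 3.15, unc-54 between -1.56 and -0.73 in the 4 lines, and the 38 mRNA values between -0.04 and 0.51.

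The remaining 33, 32, 32 and 33 genes in lines 1 to 4 did not reach the filter, and 27, 30, 30 and 30 of them averaged under 5 RPM in the line and in N2. Among them unc-89 stood at 6.39 and 5.37 RPM in line 1, against 1.66 and 3.403 RPM in N2, and in lines 2 to 4 at 1.83 to 5.28 RPM. With the filter lowered to a mean of 1 it was not called in line 1 (log2 1.00, adjusted p = 0.192 by limma). The authors' deposited table does not call it in lines 1, 2 and 4 (adjusted p = 0.420, 0.810 and 0.451) and gives no adjusted p in line 3.

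Beside the 40 genes, sRNAs of 2 related muscle genes fell in all 4 lines under both scalings. For tln-1, the talin of the attachments, they stood at 17.96 to 28.6 RPM in the lines, against 125 and 82.7 RPM in N2 (log2 -1.92, -2.16, -2.30 and -2.13). For unc-68, the ryanodine receptor, they stood at 52.8 to 69.0 RPM in the lines, against 183 and 123 RPM in N2 (log2 -1.36, -1.15, -1.28 and -1.49). rsu-1, a partner of the integrin complex, rose in line 2 (239 and 250 RPM) and line 4 (458 and 421 RPM), against 115.3 and 103.9 RPM in N2 (log2 1.15 and 1.99). In all, limma called 0, 1, 1 and 1 of the 5, 7, 6 and 5 other attachment genes tested in lines 1 to 4 higher and 2, 6, 4 and 2 lower. Under TMM 0, 1, 1 and 2 were called higher and 1, 1, 1 and 2 lower. Of 3 genes of excitation and calcium handling limma called 1, 3, 3 and 2 lower, and TMM kept 1 in each line. Beside the counts of these lists, limma called 13.8%, 52.8%, 54.4% and 66.7% of all tested genes lower in lines 1 to 4. Under TMM those shares were 7.57%, 9.81%, 8.48% and 13%. The shares of all genes higher were 3.03%, 5.83%, 5.83% and 5.4%, and under TMM 6.27%, 12.3%, 16.4% and 14%. Of the 20 germline and oocyte genes 2, 15, 16 and 18 fell in RPM, and 0, 2, 2 and 4 under TMM, and their part in the muscle values was not tested.

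sRNAs mapping to the muscle genes in rde-11 mutants were scarce as well. The 40 genes took 0.0481 and 0.0511% of sRNA reads in rde-11 young mothers, against 0.0458 and 0.0416% in N2 young mothers. Of the 9 genes tested limma called 3 higher and 0 lower, where it called 18.3% of all tested genes higher and 8.56% lower. At an unadjusted p under 0.05 it had 3 higher and 1 lower, beside 28.8% and 11.4% of all genes tested. TMM gave 2 higher and 1 lower, beside 9.93% and 10.9% of all genes, and edgeR also called 2 higher and 1 lower. Of 11 muscle genes with an adjusted p, the authors' deposited table calls 1 higher, unc-78, and 0 lower, and its share over all genes was not counted. All genes were shifted by a median log2 of 0.16, which TMM brought to 0.05, and the tested muscle genes had a median 0.14 above that of all genes. Both mutant libraries were higher than both N2 libraries for 6 of the 9 (66.7%), against 48.3% of all genes tested, and both were lower for 2, against 19.3%.

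The largest change was that of unc-78, the partner of cofilin in actin turnover. Its sRNAs rose to 22.9 and 23.1 RPM in rde-11 mutants, against 9.16 and 9.89 RPM in N2 (log2 1.19, SE 0.18, adjusted p = 0.00207 by limma). Those of ttn-1, the titin-like gene, rose to 15.5 and 18.9 RPM in rde-11 mutants, against 8.69 and 10.7 RPM in N2 (log2 0.77, SE 0.20, adjusted p = 0.0256). Those of pat-3 rose to 58.8 and 65.2 RPM in rde-11 mutants, against 43.2 and 44.1 RPM in N2 (log2 0.49, SE 0.14, adjusted p = 0.0282). The groups did not overlap for these 3 genes. unc-78 and ttn-1 passed the filter only through the mutant libraries, with N2 means of 9.53 and 9.70 RPM, and they were called as well with the filter lowered to a mean of 1 (adjusted p = 0.000632 and 0.0226). The authors' deposited table gives unc-78 an adjusted p of 0.0135, ttn-1 0.287 and pat-3 0.279. Under TMM unc-78 and ttn-1 kept their call and pat-3 lost it (adjusted p = 0.0769). Without mutant replicate 2 or N2 replicate 1 neither ttn-1 nor pat-3 was called, and without N2 replicate 2 pat-3 was not (adjusted p = 0.102). ttn-1 overlaps the channel gene exp-2 in WBcel235, while unc-78 and pat-3 overlap no protein-coding gene there.

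**Figure D5:**
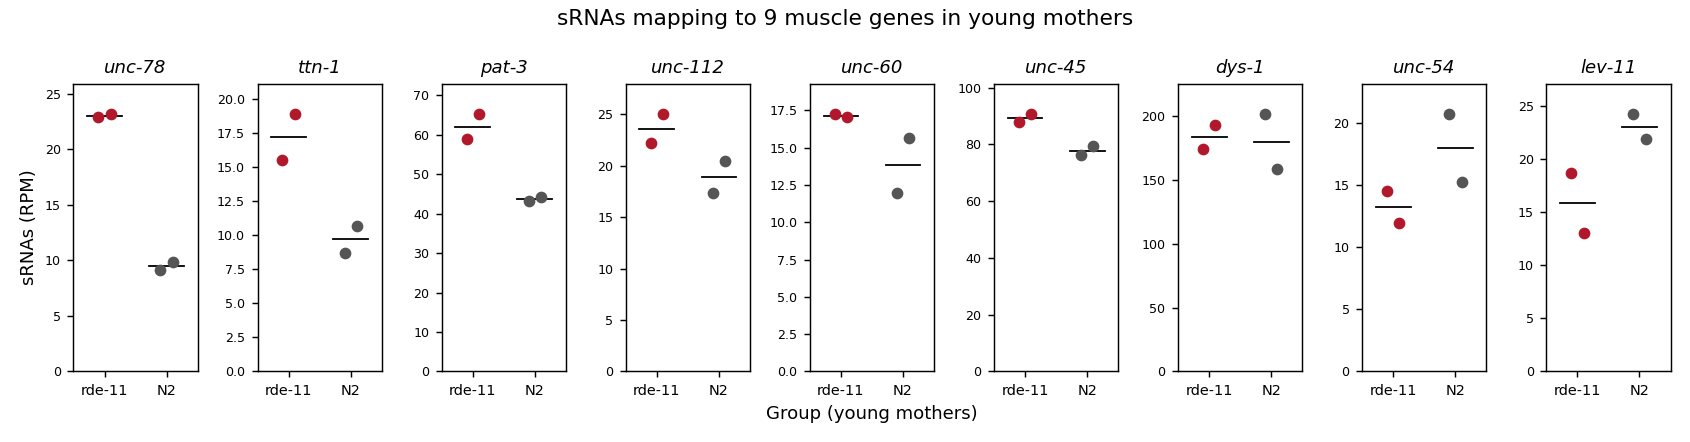
The plot shows sRNAs in RPM for the 9 muscle genes tested in young mothers, with 2 points and their mean for rde-11 mutants and for N2, each gene on its own axis from 0. unc-78 stands at 22.9 and 23.1 RPM in rde-11 mutants and at 9.16 and 9.89 RPM in N2.

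sRNAs of lev-11, the tropomyosin gene, lay on the lower side. They stood at 18.7 and 12.99 RPM in rde-11 mutants, against 24.2 and 21.8 RPM in N2 (log2 -0.53, adjusted p = 0.0806 by limma), and the gene was called lower under TMM (adjusted p = 0.0490) and without mutant replicate 1 (adjusted p = 0.0241). The authors' deposited table gives it an adjusted p of 0.301. The 2 mutant libraries lay below both N2 libraries. sRNAs of unc-54 stood at 14.5 and 11.97 RPM in rde-11 mutants, against 20.7 and 15.3 RPM in N2 (log2 -0.40, adjusted p = 0.178), without overlap and without a call. Those of dys-1 overlapped, at 174 and 193 RPM in rde-11 mutants, against 201 and 158 RPM in N2. The kinase gene pat-4, singled out after its values were seen, stood at 3.20 and 4.87 RPM in rde-11 mutants, against 0.939 and 1.03 RPM in N2, below the filter and from 4 and 5 reads in N2.

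Among the related lists in rde-11 mutants, sRNAs of all 3 tested genes on the list of other dystrophin complex genes rose by limma. Those of dys-1 were not called (log2 0.04). The 3 genes were snf-6 (435 and 433 RPM in rde-11 mutants, against 321 and 295 RPM in N2), stn-1 (47.3 and 43.6 RPM, against 28.7 and 31.3 RPM in N2) and dgn-1 (16.2 and 13.6 RPM, against 7.05 and 3.71 RPM in N2). dgn-1 passed the filter only through the mutant libraries and was not tested under TMM, where snf-6 and stn-1 kept their call. edgeR called dgn-1 as well (adjusted p = 0.0127). Of 3 receptor genes 2 fell, lev-10 and unc-49 (log2 -0.34 and -0.41), and itr-1 fell among 4 genes of excitation and calcium handling (log2 -0.94). Of 5 other thin filament and actin genes 3 rose, T25F10.6, the capping protein gene cap-1 and the actin gene act-2 (log2 1.25, 0.83 and 0.59). Of 6 other attachment genes scpl-1 rose and vab-10 fell (log2 0.85 and -0.58). act-2 lost its call under TMM (adjusted p = 0.0935 by limma) and by edgeR (0.0923), and TMM kept the other calls of the receptor, excitation, thin filament and attachment lists. Beside the counts of all lists in this comparison, limma called 18.3% of all tested genes higher and 8.56% lower. Among markers of other tissues 8 of 20 germline and oocyte genes rose (0 under TMM), while 3 of 3 yolk protein genes and 3 of 8 neuron genes fell, and the part of these tissues in the muscle values was not tested.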

How the data were processed

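Whole-worm mRNA and sRNA libraries were compared within the 6 deposited tables. The submitters' processing notes name HTSeq, HISAT2, Bowtie2, cutadapt and DESeq2, and build ce10. Versions, annotation and strand setting are not given in the sources used here. The authors deposited sRNA values in RPM and mRNA values as a signal scaled between libraries. The log2 fold change and adjusted p-value of the authors stand beside them, per the file headers. Because the tables hold normalized values, the test was limma 3.58.1 with a mean trend (R 4.3.3) on log2(value + 1), for genes averaging 10 or more across the 4 libraries, adjusted over all genes, with 0.05 as threshold. The added 1 makes log2 changes of low genes smaller than their ratios. Lines 1 to 4 were compared with each other by a moderated F test over 10 libraries. 100% of values came out as whole reads within 0.02, and edgeR 4.0.16 was run on these reads as an alternative. It called 299 genes higher and 439 lower in mRNA (318 and 785 by limma), and 401 and 520, 800 and 675, 1058 and 595, 886 and 876, and 793 and 857 in sRNAs of lines 1 to 4 and rde-11 (207 and 939, 389 and 3526, 388 and 3616, 356 and 4394, and 1435 and 672 by limma on RPM). The fits were tested on simulated data. Other alternatives were TMM scaling, a pseudocount of 0.5, a minimum mean of 1, replicate number as a block, and leaving out each library.

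Values per library are given for unc-54, myo-3, unc-15, unc-22, unc-89 and hlh-1 where tested, for called muscle genes, and for the 3 with the largest log2 change. Of other lists up to 4 called genes are named. The muscle genes and all lists were chosen with earlier results of these data known. Of the 40 genes 40 matched their WormBase ID and symbol. In WBcel235, a later build used only for neighbours, 16 overlap another protein-coding gene and 24 do not, so sRNAs of those 16 are uncertain. Counting error and replicate spread limit precision.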

Additional observations from a re-analysis of the deposited data

Results flagged for a closer look

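sRNAs mapping to dys-1 differed among the 4 meg-3 meg-4 lines by the moderated F test of limma (adjusted p = 0.00139), with 99.6 and 89.8 RPM in line 1, 73.9 and 77.6 RPM in line 2, 76.1 and 87.6 RPM in line 3, 165 and 158 RPM in line 4, and 169 and 170 RPM in N2. sRNAs mapping to unc-87 also differed among the lines (adjusted p = 0.0150), with line 2 at 31.9 and 31.8 RPM, the other 3 lines at 13.4 to 18.8 RPM, and N2 at 1.90 and 2.62 RPM.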

How the results depend on the processing

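Among results for single muscle genes under all alternatives, 548 kept their direction and side of the threshold, 93 lost and 29 gained a call, and 20 changed sign, all of genes uncalled on the scale of the report. By TMM and edgeR the log2 changes that crossed 0 were those of pat-3 (0.0247 and 0.00612) and unc-112 (0.00775 and 0.00690) in line 1, unc-45 in line 3 (0.50 and 0.51) and line 4 (0.37 and 0.39), dys-1 in line 4 (0.54 and 0.54, called higher by both), and dys-1 in rde-11 (-0.0811 and -0.0893). Leaving out a library moved tnt-3 between -0.000429 and 0.301, unc-78 between -0.132 and 0.0406 and pat-4 between -0.0366 and 0.0588 in mRNA, unc-45 in line 3 between -0.153 and 0.0438, and dys-1 in rde-11 between -0.133 and 0.208. In mRNA, a minimum mean of 1 left 0 genes higher and a median of 0.187 relative to all genes, and the replicate block gave 12 higher. Calls over all genes also rose under the block, to 770 higher and 1727 lower of 7616 in mRNA, against 318 and 785 without it. With a minimum mean of 1, 298 of 12729 genes were called higher and 454 lower in mRNA. TMM gave 0 lower in line 1, 2 higher and 2 lower in line 2, 1 lower in line 3, 2 higher and 0 lower in line 4, and 1 lower in rde-11. edgeR gave 1 lower in line 1, 2 higher and 2 lower in line 2, 1 lower in line 3, 1 higher and 0 lower in line 4, and 1 lower in rde-11, as did the replicate block there. A minimum mean of 1 gave 1 higher in line 1 and in line 4, and medians of 0.147, 0.136, 0.270, 0.238 and 0.220 in lines 1 to 4 and rde-11, with more genes tested. The cause of the other changes was not tested. Leaving out each library gave 0 to 14 higher in mRNA (median 0.229 to 0.340). It gave 0 to 1 higher and 1 to 3 lower in line 1 (-0.341 to 0.0506), 1 higher and 3 to 6 lower in line 2 (-0.279 to -0.0795), 0 to 1 higher and 1 to 5 lower in line 3 (-0.223 to -0.0393), and 0 to 1 higher and 1 to 5 lower in line 4 (-0.111 to 0.0579). It gave 1 to 3 higher and 0 to 1 lower in rde-11 (0.0456 to 0.236), and 1 to 2 genes that differ among lines. In line 3 unc-87 drops below the filter without either line library. A lone library is assumed to vary like the other group. The shares of all genes called without a library are not given here, so those counts cannot be set against them. Replicate numbers do not show a pairing in the labels, and deviations of same-numbered libraries correlated at 0.229 in mRNA, 0.515, 0.0781, -0.125 and -0.214 in lines 1 to 4, and 0.404 in rde-11. The replicate block gave 3, 6, 4 and 5 lower in lines 1 to 4, pat-3 and unc-112 losing their call in line 3 (adjusted p = 0.101 and 0.109 by limma). Over all genes the block called 2490 of 6821, 3786 of 6678, 2565 of 6653 and 4449 of 6590 lower in lines 1 to 4. A crossed pairing in lines 3 and 4, chosen after seeing the data, left 1 higher and 6 lower, and 0 higher and 5 lower. Most muscle genes, with about 5 RPM or less, lay below the filter of 10 RPM, so the main test left their sRNAs out.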
